A study of Homo sapiens with 83 samples.

Results

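The transcripts of 40 genes of TGF-beta, activin and BMP signalling were followed in 2 human neuroblastoma cell lines with N-MYC-ER switched off or on. The genes were chosen by name, as a fixed list of symbols, and all 40 were found among the 60237 genes in the expression table. They comprise 3 TGF-beta ligands, 3 latent TGF-beta binding proteins, 4 TGF-beta receptors and co-receptors and 3 genes for activin subunits and their binder. There are also 4 receptors grouped by their activin receptor names, 3 BMP ligands and 4 genes for BMP receptors, a decoy receptor and an antagonist. The rest are 6 receptor-regulated and common SMADs, 2 inhibitory SMADs, 3 SMAD co-repressors and 5 target genes.

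SHEP and SKNAS are neuroblastoma cell lines, and in every group both carried N-MYC-ER, an N-MYC protein joined to part of the estrogen receptor, which 4-hydroxytamoxifen (4OHT) activates. Cells received ethanol (MYC-OFF) or 4OHT (MYC-ON) for 24 h, were then entrained with dexamethasone in all groups, and were collected every 4 h from circadian time (CT, hours after dexamethasone) 24 to 76. Expression was measured by RNA-seq of polyadenylated RNA in 83 libraries and is given as TPM, a transcript level corrected for length that sums to 1000000 in each library. There were 28 libraries each of SHEP MYC-OFF and SHEP MYC-ON, from 2 replicate time series, and 14 of SKNAS MYC-OFF and 13 of SKNAS MYC-ON, from 1 series whose MYC-ON arm ended at CT72. N-MYC-ER was expressed in the MYC-OFF cells too, so that MYC-OFF stands for N-MYC-ER without its ligand. No cells with 4OHT but without N-MYC-ER were analysed here, and an effect of 4OHT or of its vehicle cannot be told apart from that of N-MYC-ER. Dexamethasone, a glucocorticoid, was present in every group.

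TGF-beta is secreted as a latent complex held in the extracellular matrix by latent TGF-beta binding proteins. Once released, it assembles type II and type I receptor kinases, which phosphorylate SMAD2 and SMAD3, while most BMPs act through SMAD1, SMAD5 and SMAD9. Activins share SMAD2 and SMAD3 with TGF-beta, and both branches need the common partner SMAD4. SMAD6, SMAD7, SKI, SKIL and TGIF1 restrain the pathway, several of them as its own induced targets, and the ID genes are classical targets of the BMP branch. In neuroblastoma, the mesenchymal cell state is known for high expression of matrix genes that TGF-beta induces, and the adrenergic state for neuronal transcription factors.

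The libraries were compared before the genes. The median of log2(TPM + 1) over the genes tested lay between 3.93 and 4.17 in all 56 SHEP libraries, but it ranged from 2.97 to 4.38 in the MYC-OFF and from 2.755 to 4.255 in the MYC-ON libraries of SKNAS. Of the SKNAS libraries, 10 of 14 MYC-OFF and 3 of 13 MYC-ON had a median of at least 3.8, so library scale moved with the condition in SKNAS. The median change over all tested genes was -0.04 on the log2 scale in SHEP and -0.29 in SKNAS. SKNAS results are therefore given on 3 scales, which are TPM as deposited, TPM rescaled by the median of ratios, and TPM with the library median as a covariate, and also over the 13 libraries with the higher medians. Among those 13 libraries, only CT32 and CT44 had a library of both conditions. With CT in the fit, the MYC-ON changes there rest on these times alone. A gene not called there may still have changed. Of 10 mesenchymal neuroblastoma markers, 9 or 10 had a mean of at least 1 TPM in each group, against 2 of 10 adrenergic markers in SHEP and 6 to 7 of 10 in SKNAS. The adrenergic markers TH and DBH were below a mean of 1 TPM in all 4 groups. The summed level of the adrenergic list fell within 28.5 to 44.2 TPM in SHEP MYC-OFF, 38.07 to 55.96 in SHEP MYC-ON, 286 to 634 in SKNAS MYC-OFF and 87.7 to 265 in SKNAS MYC-ON. The summed mesenchymal list lay within 4186 to 5536, 3481 to 5086, 830 to 2252 and 686 to 2726 TPM in the same order. No endothelial marker of 4 reached a mean of 1 TPM. Of 6 immune markers only CD68 did in SHEP, with CD68 and PTPRC in SKNAS, and that list summed to 33.4 to 65.6, 13.99 to 53.95, 86.5 to 312.5 and 26.8 to 136 TPM in the 4 groups. The part of cell state in the results was not tested. The known MYC target ODC1 rose with MYC-ON in both lines, with log2 changes of 2.14 for SHEP and 1.64 for SKNAS (adjusted p = 4.23e-40 and 1.31e-08). 4OHT acts on the N-MYC-ER protein, so the MYCN transcript is no check of the switch. Its log2 difference was -0.57 for SHEP (adjusted p = 1.17e-12) and -0.67 for SKNAS, where it was not called (adjusted p = 0.321).

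The comparison of MYC-ON with MYC-OFF asked how N-MYC activation changed the level of each gene. In SHEP, most of the pathway was lower in MYC-ON. The matrix protein TGFBI, the SMAD3 transcription factor, the receptor TGFBR2, the latency proteins LTBP1 and LTBP2 and the inhibitors SMAD7, SKIL and GREM1 all fell by more than 1.5-fold, whereas the ligand BMP6 and the co-receptor ENG rose by more than 1.5-fold. A gene was called where the adjusted p of limma was at most 0.05 and the change at least 0.15 on the log2(TPM + 1) scale, among genes with a mean of at least 1 TPM. Of the 40 genes, 35 were tested in SHEP, and 6 were called higher, 22 lower and 7 not called. Among all 14362 genes tested 71.9% were called, 33% higher and 38.9% lower. The median change was -0.29 over the 35 genes and -0.04 over all genes. Past 1.5-fold (0.66 on the log2 scale) there were 2 genes higher and 9 lower, where 20.8% of all genes passed, 9.39% higher and 11.4% lower. In bulk RNA, fewer cells expressing a gene and less of its RNA per cell cannot be told apart.

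**Figure D1:**
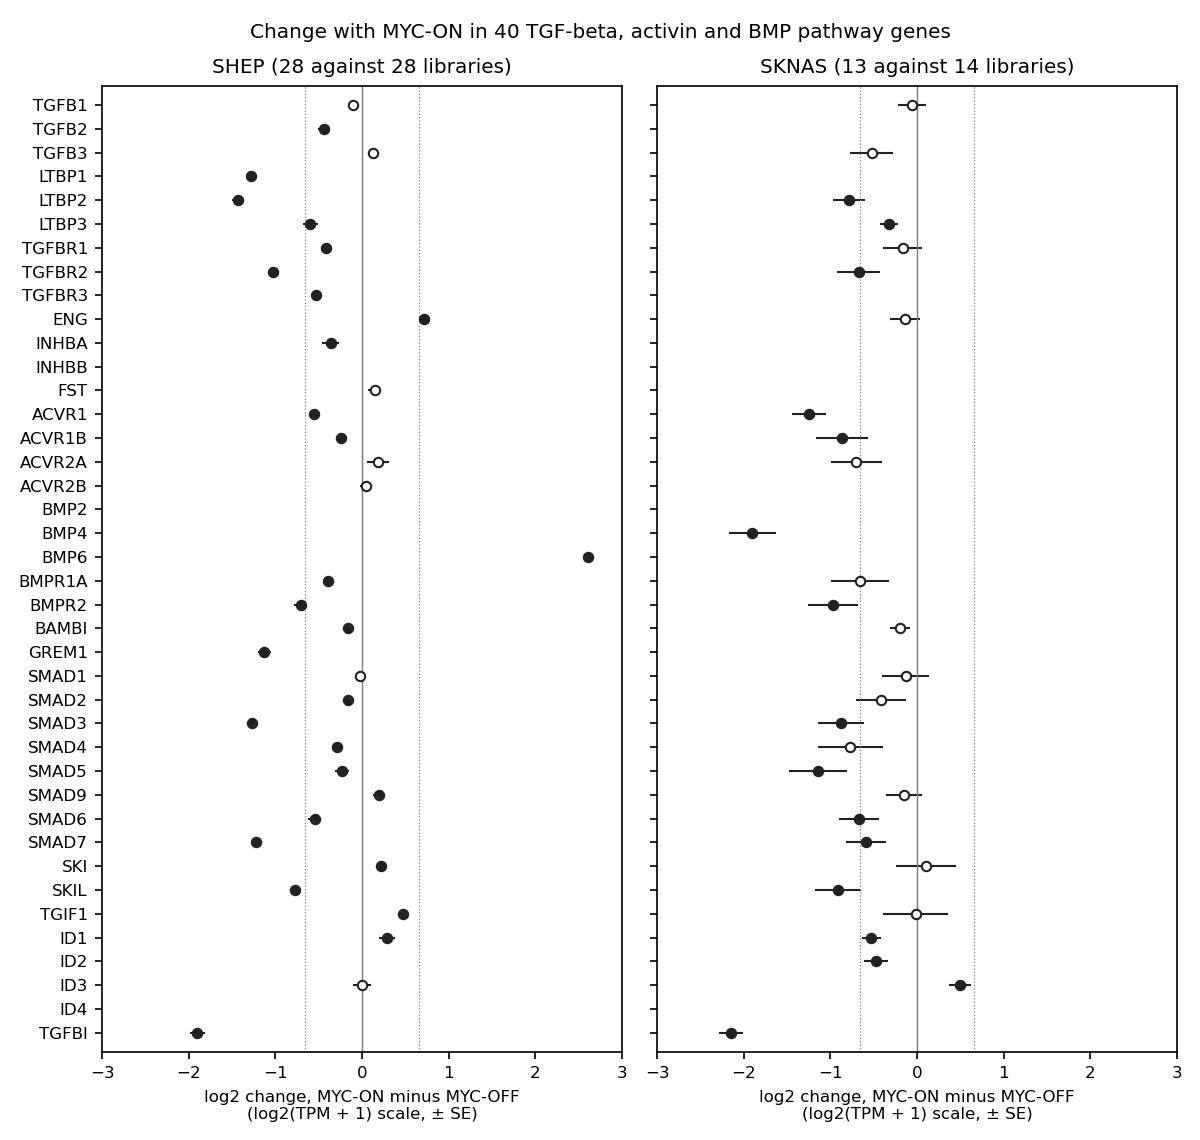
Log2 change of the 40 genes with MYC-ON (x axis, log2(TPM + 1) scale) in SHEP (left) and SKNAS (right). Points are limma estimates with bars of 1 SE, filled where called, dotted lines mark the 1.5-fold limit, and genes without a point had a mean below 1 TPM in that line. In SHEP the points run from TGFBI at -1.91 to BMP6 at 2.62, and in SKNAS from TGFBI at -2.15 to ID3 at 0.50.

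TGFBI, a secreted matrix protein named for its induction by TGF-beta, was the most abundant of the 40 transcripts in SHEP. With N-MYC-ER off it ranged from 1072 to 1512 TPM in SHEP with a median of 1302, and with it on from 156 to 739 TPM with a median of 360.2. The highest MYC-ON library lay below the lowest MYC-OFF library, and TGFBI fell by 1.91 ± 0.09 (SE) on the log2 scale (adjusted p = 2.12e-24). BMP6, a ligand of the BMP branch, moved the other way. It lay between 0.153 and 0.748 TPM in MYC-OFF (median 0.366) and between 5.40 and 9.39 TPM in MYC-ON (median 7.45). No library of one condition reached the range of the other, and the rise was 2.62 ± 0.05 on the log2(TPM + 1) scale (adjusted p = 1.71e-39), which understates the change of a gene below 1 TPM. Both series showed it, with means of 0.353 and 7.46 TPM in series 1 and 0.402 and 7.47 TPM in series 2.

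TGFBI lies on chromosome 5 (GRCh38, chr5:136028988-136063818, plus strand) and BMP6 on chromosome 6 (chr6:7726099-7881728, plus strand). The 250 bases before the transcription start of 4 genes are shown, because TGFBI and the receptor gene ACVR1 were lower with MYC-ON in SHEP and in SKNAS on 3 scales, BMP6 had the largest rise in SHEP, and the BMP antagonist GREM1 (chr15:32718004-32745106, plus strand) fell in SHEP and held both kinds of SMAD motif. ACVR1 spans chr2:157736251-157876330 on the minus strand. The sequences are from RefSeq (GRCh38.p14), 5′ to 3′ on the strand of the gene, at chr5:136028738-136028987 (plus strand) for TGFBI, chr2:157876331-157876580 (minus strand) for ACVR1, chr6:7725849-7726098 (plus strand) for BMP6 and chr15:32717754-32718003 (plus strand) for GREM1. Capitals mark every occurrence of 3 motifs, which are CACGTG (the E-box that MYC and MAX bind), CAGACA or its complement TGTCTG (a SMAD binding element) and GGCGCC (a GC-rich site bound by BMP SMADs).
TGFBI: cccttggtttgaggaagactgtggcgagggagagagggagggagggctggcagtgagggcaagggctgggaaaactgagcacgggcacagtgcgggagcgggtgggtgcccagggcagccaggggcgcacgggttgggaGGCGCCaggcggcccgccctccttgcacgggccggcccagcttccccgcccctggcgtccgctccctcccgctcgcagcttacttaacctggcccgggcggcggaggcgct
ACVR1: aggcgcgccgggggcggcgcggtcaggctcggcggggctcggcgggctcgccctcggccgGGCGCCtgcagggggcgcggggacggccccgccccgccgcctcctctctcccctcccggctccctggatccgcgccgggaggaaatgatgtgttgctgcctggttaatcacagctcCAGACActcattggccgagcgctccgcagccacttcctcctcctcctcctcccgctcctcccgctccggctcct
BMP6: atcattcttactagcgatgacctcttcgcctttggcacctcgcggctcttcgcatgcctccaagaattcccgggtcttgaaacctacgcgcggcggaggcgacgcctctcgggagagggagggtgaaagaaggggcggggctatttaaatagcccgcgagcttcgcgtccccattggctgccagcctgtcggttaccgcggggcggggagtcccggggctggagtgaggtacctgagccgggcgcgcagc
GREM1: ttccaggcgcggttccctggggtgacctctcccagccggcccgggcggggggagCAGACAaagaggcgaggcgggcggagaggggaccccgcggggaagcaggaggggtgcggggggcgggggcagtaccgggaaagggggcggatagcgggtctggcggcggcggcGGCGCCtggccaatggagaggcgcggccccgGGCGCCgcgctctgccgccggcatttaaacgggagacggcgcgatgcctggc
TGFBI held 1 GGCGCC at 111 bases before the start and BMP6 none of the 3 motifs. ACVR1 held CAGACA at 74 and GGCGCC at 190 bases before the start, and GREM1 CAGACA at 196 and GGCGCC at 83 and 52 bases.

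A promoter was given for 38 of the 40 genes. CACGTG, a palindrome that reads alike on both strands, was found in 6 of the 38 windows (TGFB2, TGFB3, ACVR1B, SMAD1, SMAD3 and SMAD9), and in 6.34% of all 35116 promoters of the same length. CAGACA or TGTCTG was found in 5 of 38 (TGFB2, ACVR1, BMPR2, GREM1 and TGIF1) and in 13.6% of all promoters. GGCGCC, also a palindrome, was found in 13 of 38 and in 16.4% of all promoters. In TGFB2 the CAGACA and the CACGTG overlap, and a match says only that these letters stand in the window.

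The ligands of the TGF-beta branch changed little in SHEP beside their latency proteins. TGFB1 had a median of 108 TPM in SHEP MYC-OFF and 100.2 in MYC-ON, with ranges of 88.0 to 146 and 66.1 to 133, and a difference of -0.11 ± 0.05 that was not called (adjusted p = 0.0681), although it was called with the library median as a covariate (-0.20, adjusted p = 0.00692). TGFB2 went from a median of 99.3 TPM (71.3 to 159.5) to 69.7 TPM (52.7 to 112), and fell by 0.44 ± 0.07 (adjusted p = 2.11e-07) with overlapping ranges. TGFB3, the least abundant, had medians of 1.57 and 1.75 TPM and was not called (adjusted p = 0.0752), and with the covariate it was called higher (0.28, adjusted p = 0.00207).

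All 3 latent TGF-beta binding proteins, which anchor the latent ligand in the matrix, fell in SHEP. LTBP1 ranged from 47.96 to 81.05 TPM in MYC-OFF (median 69.0) and from 19.8 to 38.2 TPM in MYC-ON (median 27.0), a fall of 1.28 ± 0.06 (adjusted p = 2.34e-25). LTBP2 went from a median of 25.1 TPM (12.97 to 33.1) to 8.16 TPM (5.69 to 12.3), with a log2 change of -1.43 ± 0.07 (adjusted p = 1.08e-23). For both genes the ranges did not overlap, which held for 5 of the 35 genes lower in MYC-ON and 2 higher, beside 6.36% and 6.11% of all genes tested. LTBP3 overlapped between the conditions (55.0 to 119 against 38.8 to 93.8 TPM), although it was lower in MYC-ON at all 28 matched times of a series (log2 change -0.60 ± 0.08, adjusted p = 1.09e-08).

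Of the receptors, TGFBR2, the type II receptor that binds TGF-beta, lay between 17.1 and 29.7 TPM in SHEP MYC-OFF (median 24.8) and between 9.87 and 13.8 TPM in MYC-ON (median 11.03). The ranges were separate and the log2 change was -1.03 ± 0.03 (adjusted p = 1.51e-29). Its type I partner TGFBR1 fell less, from a median of 20.1 to 14.4 TPM (-0.42 ± 0.05, adjusted p = 5.86e-11). The co-receptor TGFBR3 fell from a median of 1.59 to 0.690 TPM (-0.53 ± 0.05, adjusted p = 3.64e-12), a level at which the log2(TPM + 1) scale understates the change. ENG, the co-receptor endoglin, was the exception among these 4 genes. It ranged from 88.3 to 108 TPM in MYC-OFF (median 97.7) and from 132 to 183 TPM in MYC-ON (median 161), without overlap, and rose by 0.72 ± 0.02 (adjusted p = 2.97e-29).

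The activin genes were nearly all modest in their mean change. INHBA, the subunit of activin A, had a median of 55.7 TPM in SHEP MYC-OFF (41.5 to 84.2) and 40.2 TPM in MYC-ON (23.1 to 91.8), a log2 change of -0.36 ± 0.10 (adjusted p = 0.00104) that depended on the time of collection, as described further on. Without series 2 that call was lost (adjusted p = 0.0568). INHBB was at most 0.121 TPM in the libraries of either line and was not tested, and FST (follistatin, an activin binder) was not called, with medians of 1.69 and 2.06 TPM. The receptors ACVR1, ACVR1B, ACVR2A and ACVR2B were grouped by name, which does not say which branch each serves. ACVR1 fell in SHEP from a median of 20.0 TPM (16.1 to 21.8) to 12.8 TPM (10.8 to 16.3) with a log2 change of -0.56 ± 0.04 (adjusted p = 8.19e-18). The ranges met only at their edges. ACVR1B differed by -0.24 ± 0.04, while ACVR2A and ACVR2B were not called. Without series 2 ACVR2A was called higher, at 0.42 (adjusted p = 0.0481).

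On the BMP side, BMP2 and BMP4 had means below 1 TPM over the SHEP libraries and were not tested there. The receptor BMPR2 fell from a median of 17.1 TPM (8.67 to 24.1) to 10.4 TPM (7.08 to 14.1), a log2 change of -0.71 ± 0.08 (adjusted p = 1.35e-11) with overlapping ranges. BMPR1A, a type I BMP receptor, fell by 0.40 ± 0.05 (adjusted p = 9.82e-10). GREM1, a secreted protein that binds and blocks BMPs, ranged from 28.7 to 138 TPM in MYC-OFF (median 44.7) and from 13.4 to 40.05 TPM in MYC-ON (median 19.6). It was lower in MYC-ON at all 28 matched times and fell by 1.13 ± 0.07 (adjusted p = 5.93e-19), although the ranges overlapped. BAMBI, a decoy receptor without a kinase, changed by -0.16 ± 0.04.

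Among the SMADs, SMAD3 and the inhibitory SMAD7 fell past the 1.5-fold limit on the log2(TPM + 1) scale in SHEP. SMAD3 lay between 58.9 and 101 TPM in MYC-OFF (median 90.4) and between 23.3 and 45.0 TPM in MYC-ON (median 34.7), without overlap, and fell by 1.28 ± 0.05 (adjusted p = 4.29e-26). Its partner in the same branch, SMAD2, had medians of 83.2 and 72.5 TPM and a log2 change of -0.16 ± 0.03 (adjusted p = 1.15e-06). SMAD4 fell by 0.29 ± 0.06 and SMAD5 by 0.23 ± 0.08, SMAD9 rose by 0.19 ± 0.06, and SMAD1 was not called (-0.02 ± 0.06, adjusted p = 0.743). The inhibitory SMAD7 ranged from 9.06 to 19.9 TPM in MYC-OFF (median 11.3) and from 2.20 to 10.7 TPM in MYC-ON (median 4.52). It was lower at all 28 matched times and fell by 1.23 ± 0.06 (adjusted p = 8.66e-24), and SMAD6, at medians of 1.79 and 0.961 TPM, fell by 0.55 ± 0.08 (adjusted p = 1.91e-08). For a gene as low as SMAD6 the log2(TPM + 1) scale understates the change.

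The 3 co-repressors of SMADs did not move together in SHEP. SKIL fell from a median of 22.8 TPM (13.6 to 26.1) to 11.9 TPM (9.07 to 16.3), a log2 change of -0.78 ± 0.05 (adjusted p = 3.86e-18). TGIF1 rose from a median of 52.2 TPM (30.4 to 61.4) to 73.8 TPM (53.3 to 103) by 0.48 ± 0.04 (adjusted p = 9.42e-15), and SKI rose by 0.22 ± 0.04. Of the ID genes, inhibitors of basic helix-loop-helix factors, ID1 had medians of 22.2 and 27.0 TPM in SHEP (0.29 ± 0.10, adjusted p = 0.00652) and ID3 of 26.6 and 29.9 TPM (not called, adjusted p = 0.98). ID2 was at most 2.09 TPM in the SHEP libraries and ID4 was listed at 0 in all of them.

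Several of the smaller SHEP calls rested on counting every time point as a replicate. With the mean of each series as a replicate, 2 per condition, ACVR1B, BAMBI, SMAD2, SMAD5, SMAD9, SKI and ID1 were no longer called, with adjusted p of 0.0736, 0.162, 0.09, 0.0686, 0.22, 0.109 and 0.256, and 3 genes were called higher instead of 6. The library median as a covariate turned SMAD5 to 0.09 (adjusted p = 0.178) and SMAD1 to 0.18 (adjusted p = 0.00878). With it SMAD4 was at -0.07 (adjusted p = 0.243), ID1 at 0.12 (adjusted p = 0.351) and SMAD2 at -0.08 (adjusted p = 0.0103), and none of these 3 was called.

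In SKNAS, the fall of TGFBI recurred and BMP4 joined it, while most other changes depended on the scale of the libraries. TGFBI lay between 89.5 and 133 TPM in SKNAS MYC-OFF (median 115) and between 12.9 and 45.9 TPM in MYC-ON (median 25.2). It was the only one of the 29 tested genes whose ranges did not overlap, beside 2.09% of all 13886 genes tested that were lower and 2.32% that were higher without overlap, and it fell by 2.15 ± 0.14 (adjusted p = 1.45e-08), or by 1.86 relative to the median of all genes. The values on the other scales were -1.81 rescaled, -2.22 with the covariate and -1.94 in the 13 libraries with higher medians (adjusted p = 0.0111). The last value rests on the matched times CT32 and CT44.

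BMP4, a BMP ligand, was the other gene called lower on all 3 scales and in the libraries with higher medians. It ranged from 1.90 to 16.9 TPM in SKNAS MYC-OFF (median 11.7) and from 0.0961 to 3.84 TPM in MYC-ON (median 1.78). The ranges overlapped through 3 MYC-OFF libraries, each with a library median under 3.8, and the log2 change was -1.90 ± 0.27 (adjusted p = 4.39e-05), against -1.70 rescaled, -1.25 with the covariate and -1.82 in the higher libraries (adjusted p = 0.0396).

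In all, 1 of 29 genes was called higher in SKNAS (ID3) and 15 lower on TPM, where 48.1% of all genes were called, 13.9% higher and 34.2% lower. Past 1.5-fold 11 fell and 0 rose, where 30.8% of all genes passed, 6.99% higher and 23.8% lower. The rescaled values gave 2 higher and 11 lower, beside 51.3% of all genes, 26.5% higher and 24.9% lower. With the covariate it was 8 higher and 7 lower, beside 54.2%, 28.3% higher and 25.9% lower, and in the 13 libraries with higher medians 0 higher and 2 lower. The share of all genes called in those 13 libraries was not counted, so the last counts have no baseline. On all 3 scales, LTBP2, ACVR1, BMP4, SMAD3 and TGFBI were called lower and ID3 higher, where 19.1% of all genes were lower and 12% higher. Of the 29 genes, 17 kept the sign of their change on the 3 scales and 12 did not, the latter being TGFB1, TGFB3, LTBP3, TGFBR1, ENG, BMPR1A, BAMBI, SMAD1, SMAD2, SMAD4, SMAD9 and TGIF1. TGFB1, for example, had medians of 128 and 111 TPM and a log2 change of -0.06 ± 0.16 (adjusted p = 0.796), against 0.29 rescaled (adjusted p = 0.0345).

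Library scale itself separated many of these genes. For 11 of the 29, every SKNAS library with a median of at least 3.8 lay above every library with a lower median, whatever the condition (TGFB3, LTBP2, TGFBR2, ENG, ACVR1B, BMPR1A, BMPR2, SMAD2, SMAD3, SMAD4 and SMAD5). SMAD3, for instance, was 15.98 to 33.8 TPM in the 13 libraries with higher medians and 3.61 to 10.7 TPM in the other 14. TGFBI, BMP4, ACVR1 and ID3 were not among them. Within each condition, however, ACVR1 and BMP4 also separated by library median, while TGFBI and ID3 did not. From higher to lower medians, ACVR1 was 13.15 to 18.95 against 4.934 to 11.63 TPM in MYC-OFF. In MYC-ON it was 8.114 to 10.46 against 1.701 to 6.494 TPM. BMP4 was 9.607 to 16.95 against 1.898 to 5.776 TPM in MYC-OFF, and 2.797 to 3.839 against 0.09612 to 2.586 TPM in MYC-ON. This split by library median was looked at after the values were seen. The share of all genes that separated in this way was not counted. The median was itself taken over all genes tested, so the separation cannot be called particular to these 11 genes.

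**Figure D2:**
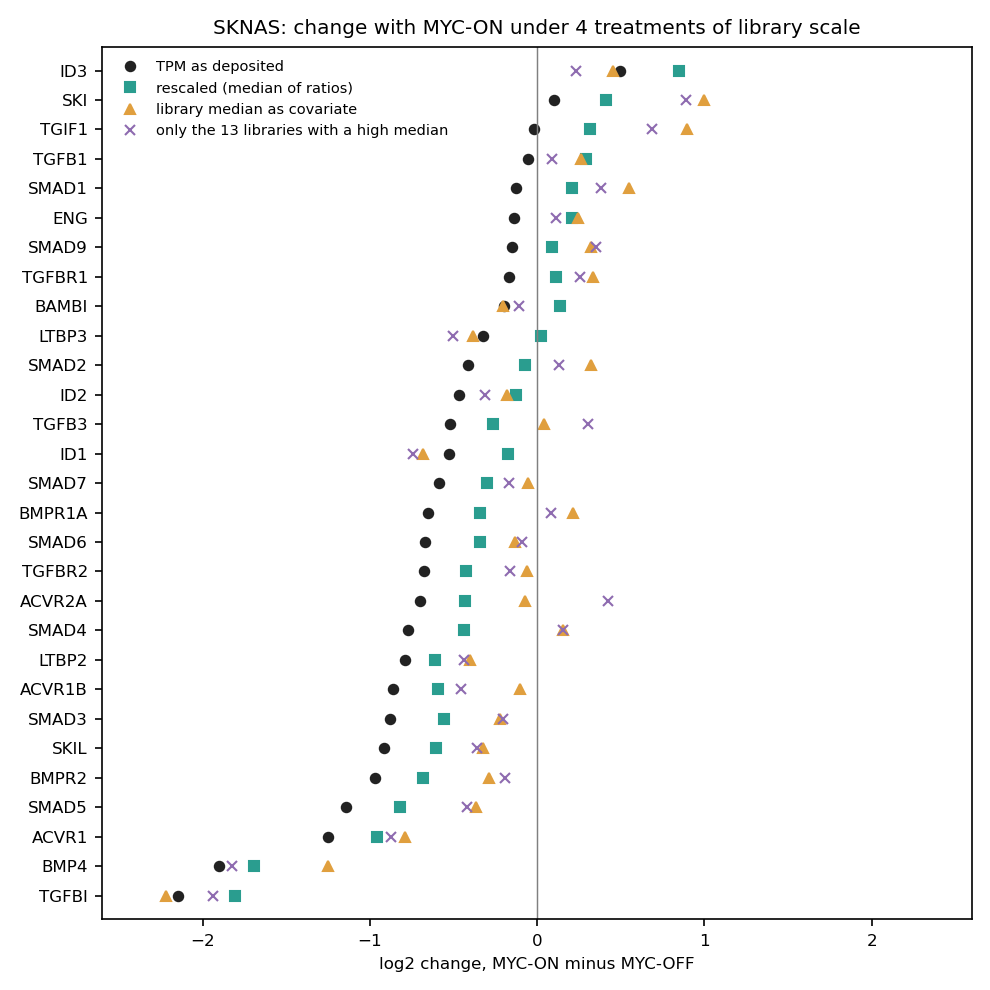
Log2 change with MYC-ON in SKNAS (x axis) of the 29 genes tested, ordered by the change on TPM as deposited, on 3 scales and over the 13 libraries with a median of at least 3.8. In those 13 libraries only CT32 and CT44 had both conditions. TGFBI and BMP4 lie between -2.22 and -1.25 in every series of points, whereas SMAD4 runs from -0.77 to 0.15 and TGIF1 from -0.02 to 0.90.

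The receptor ACVR1 fell from a median of 14.5 TPM (4.93 to 18.9) to 5.21 TPM (1.70 to 10.5) in SKNAS, by 1.25 ± 0.20 (adjusted p = 0.000123). SMAD3 went from 21.7 TPM (5.81 to 33.8) to 9.55 TPM (3.61 to 28.4), with a log2 change of -0.88 ± 0.27 (adjusted p = 0.0133). For both genes some MYC-ON libraries lay within the MYC-OFF range, 8 for ACVR1 and 10 for SMAD3, and with the covariate SMAD3 was at -0.22 (adjusted p = 0.041). In the 13 libraries with higher medians ACVR1 was at -0.87 and SMAD3 at -0.20, and neither was called (adjusted p = 0.193 and 0.792). That fit rests on the matched times CT32 and CT44, so a lost call there does not show the absence of a change. LTBP2, at medians of 1.89 and 0.331 TPM, changed by -0.79 ± 0.18 (adjusted p = 0.00258), and was at -0.44 in the libraries with higher medians (adjusted p = 0.453).

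ID3 moved upward in SKNAS, from a median of 225 TPM (97.2 to 335) to 331 TPM (236 to 454). It was higher in MYC-ON at 12 of 13 matched times and rose by 0.50 ± 0.13 (adjusted p = 0.00596), with 0.85 rescaled and 0.45 with the covariate. In the 13 libraries with higher medians it was at 0.23 (adjusted p = 0.553). ID1 and ID2, of the same family, were lower on TPM. ID1 went from 354 TPM (262 to 497) to 243 TPM (192 to 462), a change of -0.53 ± 0.11 (adjusted p = 0.00112), and ID2 from 84.5 TPM to 64.97 TPM, a change of -0.47 ± 0.14 (adjusted p = 0.0115). Rescaled, these were -0.18 (adjusted p = 0.51) and -0.12 (adjusted p = 0.200), so that neither call was kept there. With the covariate ID1 was at -0.68 and called (adjusted p = 4.13e-05) and ID2 at -0.18 and not called (adjusted p = 0.087). In the 13 libraries with higher medians ID1 was at -0.75 (adjusted p = 0.0851).

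The other genes past 1.5-fold in SKNAS were TGFBR2, ACVR1B, BMPR2, SMAD5, SMAD6 and SKIL, all lower on TPM and rescaled, and none called with the covariate. SMAD5 went from a median of 24.9 TPM (7.14 to 59.3) to 8.97 TPM (4.71 to 40.01), with changes of -1.15 on TPM, -0.82 rescaled and -0.37 with the covariate (adjusted p = 0.1). BMPR2 went from 11.3 TPM (2.78 to 19.03) to 3.97 TPM (1.47 to 16.01), with changes of -0.97, -0.68 and -0.29 (adjusted p = 0.0725 with the covariate). TGFBR2 went from 6.04 TPM (1.26 to 9.21) to 2.69 TPM (0.663 to 6.84), and with the covariate its change was -0.06 (adjusted p = 0.454). For these 6 genes, 9 to 11 of the 13 MYC-ON libraries lay at or over the lowest MYC-OFF library. SKIL had medians of 11.6 and 5.12 TPM and changes of -0.92, -0.60 and -0.32, and ACVR1B medians of 8.51 and 3.02 TPM and changes of -0.86, -0.59 and -0.10. SMAD6 had medians of 30.5 and 17.4 TPM and changes of -0.67, -0.34 and -0.13. SMAD7 (-0.59 ± 0.24, adjusted p = 0.0494) and LTBP3 (-0.32 ± 0.11, adjusted p = 0.0211) were called lower on TPM without reaching the limit of 0.66 on the log2 scale, and neither was called rescaled. With the covariate LTBP3 was called (-0.38, adjusted p = 0.00684) and SMAD7 was not (-0.05, adjusted p = 0.718).

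TGFB2, LTBP1, INHBA, FST, GREM1, BMP2, BMP6, ID4, INHBB, TGFBR3 and ACVR2B had means below 1 TPM over the SKNAS libraries and were not tested. For INHBA this meant medians of 0.111 TPM in MYC-OFF and 0.0127 TPM in MYC-ON, for GREM1 0.0558 and 0.179 TPM, and for BMP6 0.0396 and 0.171 TPM.

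Across the lines, 27 genes were tested in both, and 12 were called lower in both on TPM as deposited (LTBP2, LTBP3, TGFBR2, ACVR1, ACVR1B, BMPR2, SMAD3, SMAD5, SMAD6, SMAD7, SKIL and TGFBI). None was called higher in both. ID1 had opposite calls on TPM, but its SHEP call was lost with the covariate and with series means, and its SKNAS call on the rescaled values. Only LTBP2, ACVR1, SMAD3 and TGFBI were lower in SHEP and lower in SKNAS on all 3 scales. The share of all genes called the same way in both lines at this limit was not counted, so these counts have no baseline. Taken singly, 38.9% of all genes were lower in SHEP, 34.2% in SKNAS on TPM and 19.1% in SKNAS on all 3 scales.

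**Figure D3:**
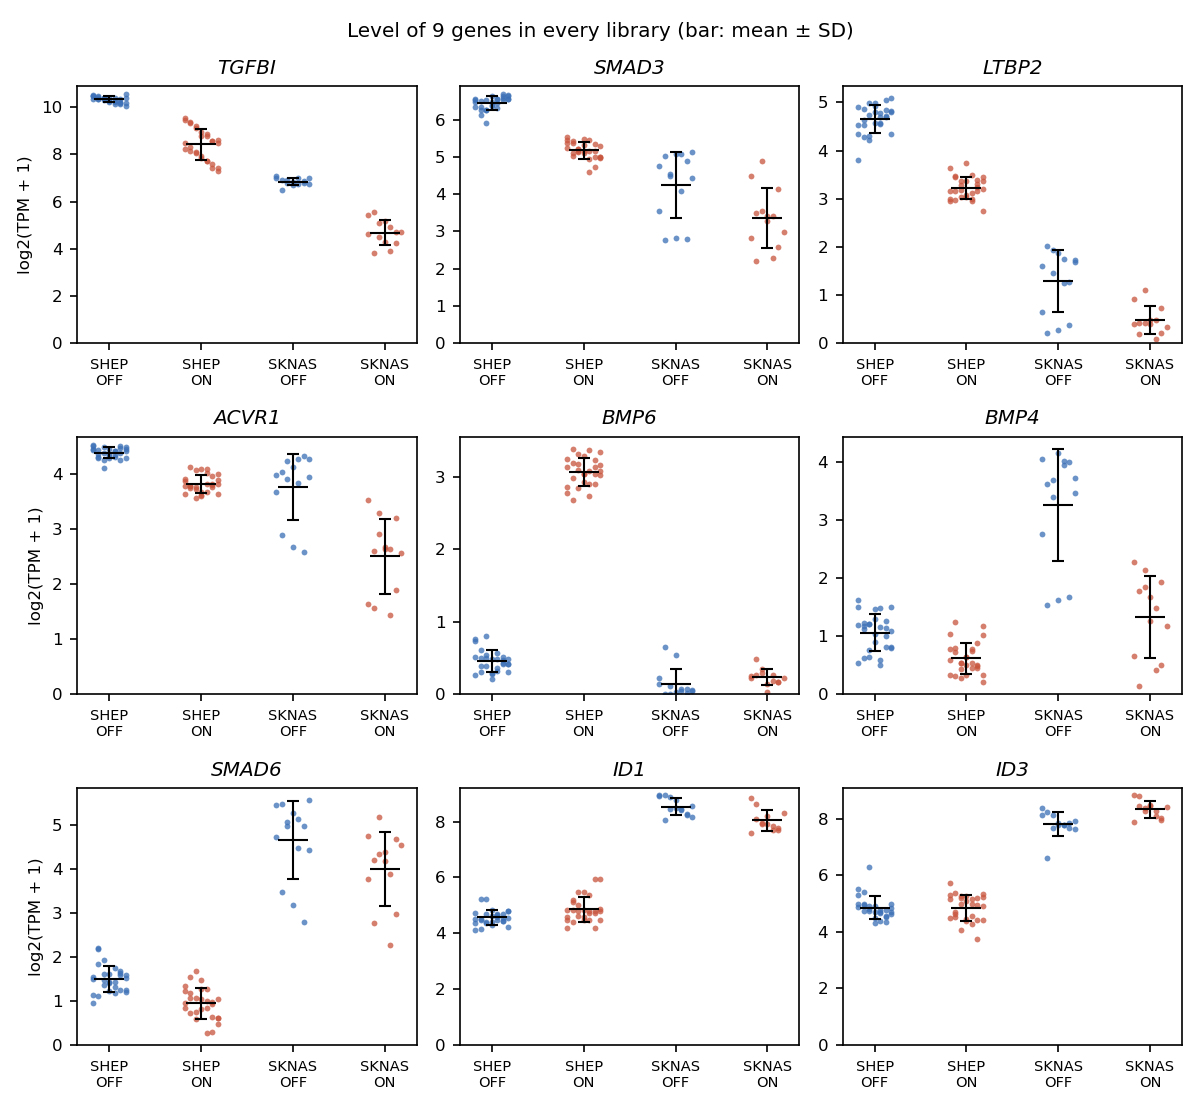
Level of 9 genes in each of the 83 libraries (y axis, log2(TPM + 1)), by line and condition, with the mean and SD as black bars. TGFBI separates MYC-OFF from MYC-ON in both lines, BMP6 only in SHEP, and ID1 and ID3 lie far higher in SKNAS than in SHEP.

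Whether the response itself differed between the lines was tested as the change in SKNAS minus the change in SHEP. Of 37 genes tested, 2 had a higher and 7 a lower value past 0.66 on the log2 scale, beside 21.2% of 15942 genes, 5.02% higher and 16.2% lower. The balance turned on the other scales, with 6 higher and 4 lower rescaled (8.7% and 9.28% of all genes), 8 and 3 with the covariate (6.57% and 7.87%) and 8 and 2 with the SKNAS libraries of higher median (4.37% and 6.99%). Of the 9 genes, LTBP1, GREM1 and BMP6 passed the filter on low values only through SHEP and BMP4 only through SKNAS, so that their differences restate the change in 1 line and are given without a test. BMP6 had a difference of -2.53. It rose in SHEP and was at most 0.574 TPM in the SKNAS libraries. BMP4 had the reverse distribution. In SHEP it was low throughout, at medians of 1.19 TPM in MYC-OFF (0.418 to 2.08) and 0.446 TPM in MYC-ON (0.154 to 1.37), and the difference between the lines was -1.46. ENG (-0.86, adjusted p = 3.78e-09) rose in SHEP and had medians of 110.5 and 85.6 TPM in SKNAS.

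Of the other 6 genes, ID1 (-0.82, adjusted p = 4.33e-05) was called higher in SHEP and lower in SKNAS. SMAD5 (-0.92, adjusted p = 0.00126), ACVR2A (-0.89, adjusted p = 0.0049) and ACVR1 (-0.69, adjusted p = 1.62e-05) had the more negative change in SKNAS. ACVR2A, an activin type II receptor, was called in neither line, with medians of 9.19 and 10.5 TPM in SHEP and 4.63 and 2.44 TPM in SKNAS. LTBP1 (1.08) and GREM1 (1.26) had positive differences. Both fell in SHEP, and in SKNAS they were at most 0.634 and 0.405 TPM. With the covariate the difference was -0.54 for ENG, -0.29 for ACVR1, -0.19 for SMAD5 and -0.38 for ACVR2A.

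The level of the pathway in MYC-OFF differed strongly between the lines. Of 36 genes tested, 19 were lower and 7 higher in SKNAS than in SHEP by 0.66 or more, beside 51.8% of 15993 genes, 31.1% lower and 20.7% higher. Genes that were low in 1 line passed the filter through the other and so had to differ, and their values are given as a description. Those with the largest deficit in SKNAS were extracellular. TGFB2 had a mean of 102.5 ± 20.0 TPM in SHEP (SD, n = 28) and 0.153 ± 0.129 TPM in SKNAS (n = 14), a difference of -6.47 on the log2(TPM + 1) scale. LTBP1 (-5.79), INHBA (-5.65) and GREM1 (-5.45) followed, with SKNAS means of 0.251, 0.128 and 0.0691 TPM. TGFB1 was not called, with means of 108 ± 13.6 and 111 ± 31.8 TPM and a difference of -0.03 ± 0.11 (adjusted p = 0.786).

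The 7 genes higher in SKNAS were TGFB3, BMP4, BAMBI, SMAD6, ID1, ID2 and ID3, a share near that of all genes, while GREM1 and BMPR2, also of the BMP branch, were lower. ID2 had a mean of 1.05 ± 0.499 TPM in SHEP and 82.7 ± 26.0 TPM in SKNAS, ID1 of 23.1 ± 4.79 and 379 ± 81.5 TPM, and ID3 of 29.2 ± 11.4 and 232 ± 56.6 TPM. The log2 difference was 5.32 for ID2, 3.97 ± 0.09 for ID1 (adjusted p = 1.34e-27) and 2.96 ± 0.12 for ID3 (adjusted p = 4.47e-21). The MYC-OFF libraries of the lines did not overlap in ID1, ID2 or ID3. The share of all genes without such an overlap was not counted, so this cannot be called particular to them. The BMP-branch inhibitor SMAD6 was also higher, at 27.96 ± 13.3 against 1.89 ± 0.650 TPM (3.15 ± 0.17, adjusted p = 6.74e-17), as was BMP4 at 10.3 ± 5.33 against 1.13 ± 0.463 TPM (a difference of 2.21), with the decoy BAMBI at 23.8 ± 3.85 against 11.96 ± 1.60 TPM.

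Of the SMADs that carry the signal, SMAD3 was lower in SKNAS MYC-OFF by 2.21 ± 0.17 (adjusted p = 2.3e-13), SMAD2 by 0.90 ± 0.17 (adjusted p = 1.98e-05) and SMAD4 by 0.77 ± 0.19 (adjusted p = 0.000649). With only the SKNAS libraries of higher median, and also with the covariate, 12 genes were lower rather than 19. The share of all genes lower in those fits is not given here, so the count of 12 has no baseline. Each line was measured in its own series, so that line and series cannot be told apart.

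The collection times ran from CT24 to CT76 in SHEP, and the genes were tested for a linear change over CT in each condition. In SHEP MYC-OFF, 4 of 35 genes rose with culture time (LTBP1, LTBP2, LTBP3 and TGIF1) and 3 fell (GREM1, SMAD7 and TGFBI) at an adjusted p of at most 0.05, where 11.8% of all genes did either, 4.38% rising and 7.46% falling. Without series 1, 0 of these 7 were called. In MYC-ON, 8 rose and 14 fell, where 60.3% of all genes did either, 21.3% rising and 39% falling. The slopes differed between the conditions for 17 of 35 genes, 6 more positive and 11 more negative in MYC-ON, where 43.4% of all genes differed, 16.1% more positive and 27.4% more negative. Without series 1, 1 was more positive and 7 more negative.

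TGFBI had the steepest slope. In SHEP MYC-ON it was 739 and 711 TPM at CT24 in the 2 series and 169.7 and 156 TPM at CT76, and the mean over CT24 to CT32 was 649 ± 69.5 TPM against 185 ± 23.4 TPM over CT68 to CT76 (SD, n = 6 each). In MYC-OFF the same means were 1376 ± 48.8 and 1150.0 ± 54.7 TPM. The MYC-ON slope was -0.96 ± 0.02 on the log2 scale per 24 h (adjusted p = 1.38e-37), the MYC-OFF slope -0.11 (adjusted p = 0.000803), and the difference -0.85 (adjusted p = 5.35e-27). Both series gave this, with MYC-ON slopes of -0.957 and -0.965. In SKNAS MYC-ON, where no slope was tested, TGFBI was 41.7 TPM at CT24 and 17.9 TPM at CT72.

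INHBA crossed over. In SHEP MYC-ON it was lower than in MYC-OFF early, at 30.4 ± 5.78 against 57.95 ± 15.8 TPM over CT24 to CT32, and higher late, at 71.9 ± 13.2 against 50.3 ± 5.97 TPM over CT68 to CT76. The early ranges were separate (23.1 to 39.2 against 41.5 to 84.2 TPM) and the late ranges overlapped slightly (56.2 to 91.8 against 44.1 to 60.5 TPM). The MYC-ON slope was 0.66 ± 0.06 per 24 h (adjusted p = 3.34e-13), in both series (0.66 each), against -0.11 in MYC-OFF (adjusted p = 0.293), and the difference of 0.77 was called (adjusted p = 5.59e-10). Its binder FST also rose in MYC-ON, by 0.45 ± 0.07 per 24 h (adjusted p = 7.42e-07), while the difference from MYC-OFF was not called (adjusted p = 0.0593).

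**Figure D4:**
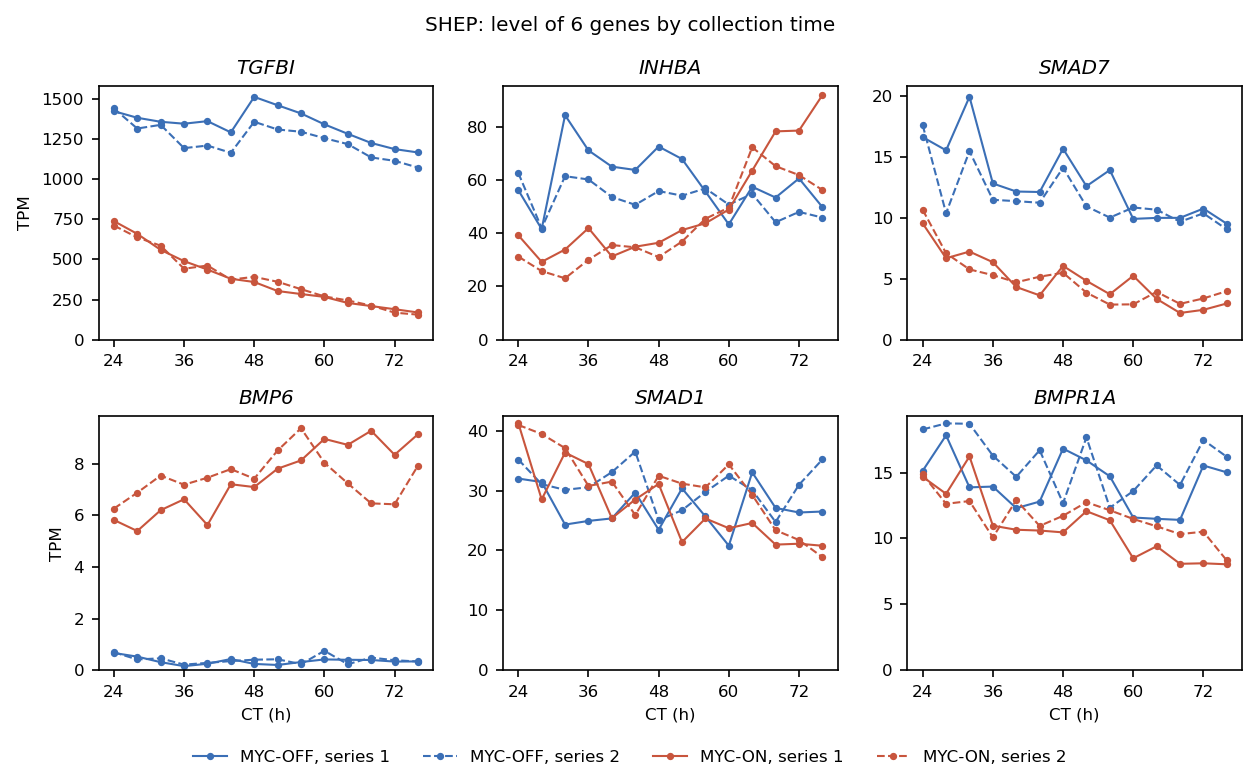
TPM of 6 genes in SHEP by CT (x axis, hours after dexamethasone), with 1 line per condition and series. TGFBI in MYC-ON declines from 711 and 739 TPM at CT24 to 156 and 169.7 TPM at CT76, INHBA in MYC-ON rises past MYC-OFF, and BMP6 is near 0 in MYC-OFF throughout.

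SMAD7 declined in both conditions, from 15.9 ± 3.18 to 9.90 ± 0.61 TPM in MYC-OFF and from 7.83 ± 1.86 to 2.99 ± 0.64 TPM in MYC-ON between the early and late times. Its slopes were -0.30 and -0.58 per 24 h (adjusted p = 0.000409 and 9.95e-12), and they differed by -0.28 (adjusted p = 0.00826). SMAD1, whose mean level was not called, fell over time in MYC-ON, from 37.3 ± 4.74 to 21.1 ± 1.46 TPM (-0.38 ± 0.05, adjusted p = 1.42e-09, difference -0.33, adjusted p = 7.6e-05). SMAD3 and SMAD6 also had negative MYC-ON slopes (-0.23 and -0.36) that differed from MYC-OFF (adjusted p = 8.87e-05 and 0.00552). The receptor BMPR1A declined in MYC-ON by 0.28 ± 0.05 per 24 h (adjusted p = 8.62e-07), and BMP6 rose by 0.18 ± 0.05 (adjusted p = 0.00096), though by 0.32 in series 1 and 0.03 in series 2. ID1 rose in MYC-ON on average (0.24, adjusted p = 0.00575), but the slope was 0.59 in series 1 and -0.12 in series 2.

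**Figure D5:**
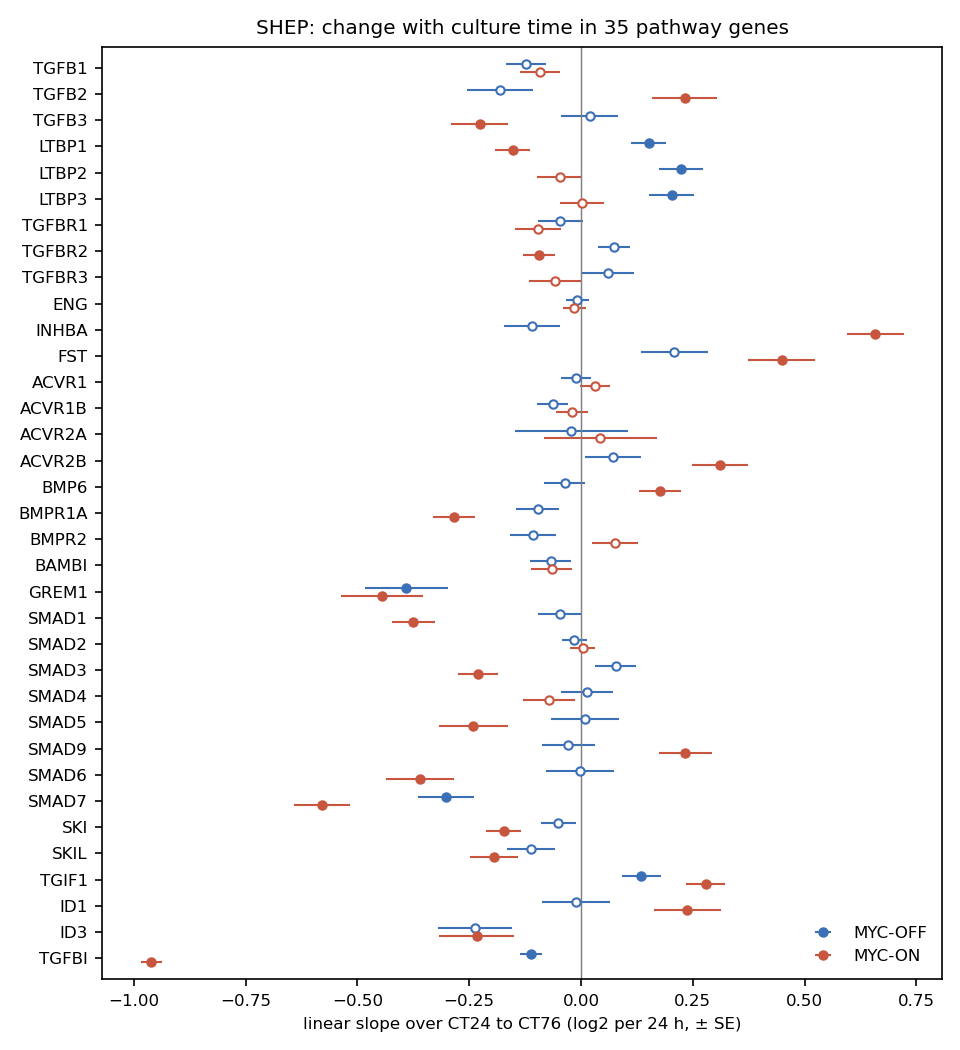
Linear slope with CT in SHEP (x axis, log2 per 24 h) of the 35 genes tested, MYC-OFF in blue and MYC-ON in red, with bars of 1 SE and filled points where the adjusted p was at most 0.05. The MYC-ON slopes run from TGFBI at -0.96 to INHBA at 0.66, and the MYC-OFF slopes from GREM1 at -0.39 to LTBP2 at 0.22.

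The study was made to follow 24 h rhythms, and none of the 35 genes had a 24 h rhythm in SHEP at an adjusted p of at most 0.05 in limma's F test, where 0.0975% of all genes passed in MYC-OFF and 0.0139% in MYC-ON. At an unadjusted p under 0.05 there were 5 genes in MYC-OFF (TGFBR2, BMPR1A, GREM1, SMAD3 and ID3), beside 10.6% of all genes, and 4 in MYC-ON (LTBP1, GREM1, SKI and TGIF1), beside 10.9%. The F test held the period at 24 h and allowed no damping, so other rhythms were not tested. The paper's ECHO method allowed damping and a range of periods, and reported many more oscillating genes per line.

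The wider pathway was described with 107 further genes of the same signalling system, of which 70 were tested in each line. In SHEP, 16 were higher and 44 lower, and in SKNAS 4 higher and 42 lower on TPM, 10 and 37 rescaled, and 16 and 35 with the covariate. The shares called among all genes in the same fits were 33% higher and 38.9% lower for SHEP, 13.9% and 34.2% for SKNAS on TPM, 26.5% and 24.9% rescaled, and 28.3% and 25.9% with the covariate. The median change was -0.35 in SHEP and -0.87 in SKNAS, beside -0.04 and -0.29 over all genes. Of other TGF-beta target genes, 2 of 21 were higher and 17 lower in SHEP, and 0 of 23 higher and 19 lower in SKNAS, to be read beside the same shares of all genes. Within this group, FN1 (fibronectin), COL1A1 (a collagen chain), CCN2 (a matricellular protein), PTHLH (a parathyroid hormone-like peptide) and TPM1 (tropomyosin) fell past 1.5-fold in both lines, as 7.3% of the genes tested in both did. The log2 change, first in SHEP and then in SKNAS, was -2.24 and -1.76 for FN1, -1.84 and -1.99 for COL1A1, -1.42 and -1.46 for CCN2, -1.41 and -1.32 for PTHLH and -1.09 and -1.55 for TPM1. On the rescaled and covariate scales these 5 genes stayed between -1.70 and -1.001 in SKNAS.

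Of proteins that activate or bind the ligands outside the cell, 1 of 11 was higher and 10 lower in SHEP, where 33% and 38.9% of all genes were, and 0 and 9 in SKNAS, where 13.9% and 34.2% were. THBS1, a matrix activator of latent TGF-beta, changed by -1.57 in SHEP and -2.43 in SKNAS, and the integrin chains ITGAV (-1.01 and -1.97) and ITGB8 (-1.30 and -1.17), which release latent TGF-beta, fell with it, as did FSTL1 (-0.999 and -1.53) and the protease FURIN (-0.82 and -1.31). BMP1, a procollagen protease and not a BMP ligand, fell by 1.67 and 1.18. TGFB1I1 was the intracellular gene named by the same rule (-1.67 and -1.45). The genes of the list that rose in both lines past 1.5-fold, as 4.1% of all genes did, were INHBE, an activin subunit near 1 TPM (0.84 and 1.17), and the BMP target GATA2, a transcription factor (1.25 and 1.70). Among other BMP targets as a group, 3 of 8 were higher and 3 lower in SHEP, and 1 of 7 higher and 2 lower in SKNAS, near the shares of all genes.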

How the data were processed

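RNA-seq was made from polyadenylated RNA, and TPM values per gene were deposited by the authors, who quantified reads with Salmon 1.3.0 on GRCh38 and collapsed transcripts to genes with Tximport. TPM sums to 1000000 in each library, so that read depth per sample is not known here and no counting interval could be given. All 83 libraries were grouped by the labels for line, condition and CT, and no 2 libraries held identical values. Another SKNAS series and U2OS were not analysed here.

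Values were transformed to log2(TPM + 1), genes with a mean below 1 TPM over the libraries of a comparison were left out, and limma 3.58.1 in R 4.3.3 (eBayes with trend) was fitted with CT as a factor to all genes. P-values were adjusted over all genes by the Benjamini-Hochberg method, and calls needed an adjusted p of at most 0.05 with a log2 change of 0.15, or of 0.66 between the lines. A linear slope, and in another fit 24 h cosine and sine terms, were fitted per condition over both SHEP series together. Each series had its own mean, and in the rhythm fit its own linear trend. Slopes were also fitted in each series alone. The libraries of a series came from cultures collected at successive times, so p-values measure the spread between these libraries. In simulated data for SHEP, 100% of 100 genes changed by 0.66 and 99% of 100 changed by 1 were recovered. For SKNAS the shares were 30% and 51%, so a gene not called in SKNAS may still have changed. The changes were planted only in genes of higher level, with noise drawn for each gene apart. Library scale did not move with the condition there, so the shares cover neither low genes nor that shift. They were taken over all SKNAS libraries and do not cover the fit on those of higher median.

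Series numbers mark replicate experiments and pair the SHEP arms: over 14362 genes the deviations of series 1 from the group mean correlated at r = 0.489 between MYC-OFF and MYC-ON. With the series number as a replicate block, 6 genes were higher and 22 lower in SHEP, as without it.

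The 40 genes and the wider gene lists were chosen with earlier results of these data known. Every listed gene was accounted for, and those past 1.5-fold in either line or with a different response between lines were described in full. Wider pathway genes were named where they passed 1.5-fold the same way in both lines, at most 5 per role and direction by the smaller change. Gene positions were taken from the Gencode annotation of GRCh38. Promoters came from RefSeq. Alternatives tried were a pseudocount of 0.1, other filters, 2 other scalings, no CT term, the replicate block, series means, each series left out, and only libraries with a median of at least 3.8. The last was chosen after seeing the data for comparisons between the lines.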

Additional observations from a re-analysis of the deposited data

Results flagged for a closer look

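The change with MYC-ON differed between the lines by more than 0.66 on the log2(TPM + 1) scale, in a test of the difference itself, for 9 of the 37 genes tested, near the share of all genes (21.2%). Given as SKNAS minus SHEP, the difference was 1.08 for LTBP1, 1.26 for GREM1, -0.86 for ENG, -0.69 for ACVR1, -0.89 for ACVR2A, -1.46 for BMP4, -2.53 for BMP6, -0.92 for SMAD5 and -0.82 for ID1. LTBP1, GREM1 and BMP6 passed the filter on low values only through SHEP and BMP4 only through SKNAS, so these 4 values restate the change in 1 line. LTBP1, GREM1 and BMP6 were at most 0.634, 0.405 and 0.574 TPM in the SKNAS libraries, and with a pseudocount of 0.1 the difference of LTBP1 was 0.38, below the limit. BMP4 was at most 2.08 TPM in the SHEP libraries. For ENG, ACVR1, ACVR2A and SMAD5 the library medians of SKNAS moved with the condition, and with the median as a covariate the differences were -0.54, -0.29, -0.38 and -0.19, none past 0.66. ID1 stayed at -0.99 with the covariate and was -0.54 rescaled, below the limit.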

How the results depend on the processing

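In SHEP the fit with the series number as a replicate block gave the same counts, 6 genes higher and 22 lower, and changed no call of the 40 genes. Series means as replicates left 3 genes higher, and a minimum mean of 5 TPM left 1 higher past 1.5-fold. The sign of small changes turned, to 0.019 for SMAD1 and 0.039 for ID3 on the rescaled values, and 0.18 for SMAD1 and 0.094 for SMAD5 with the library median as a covariate. With 1 series left out, ACVR2A ran from -0.042 to 0.42, ACVR2B from -0.011 to 0.10 and ID3 from -0.19 to 0.19. Leaving out 1 series gave 5 to 7 genes higher and 17 to 22 lower, and past 1.5-fold 2 and 9 in either case.

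In SKNAS many calls changed with the scale of the libraries. On the rescaled values 2 genes were higher, beside 26.5% of all genes. Past 1.5-fold 1 was higher and 5 lower, beside 14.8% and 13% of all genes. With the covariate 8 were higher and 7 lower, beside 28.3% and 25.9% of all genes. Past 1.5-fold it was 2 and 4, beside 11.2% and 11.7%. With only the libraries of higher median 0 were higher and 2 lower, also past 1.5-fold. The share of all genes in that fit was not counted, and the fit rests on the matched times CT32 and CT44. The sign turned, to 0.29 for TGFB1, 0.024 for LTBP3, 0.11 for TGFBR1, 0.21 for ENG, 0.14 for BAMBI, 0.21 for SMAD1, 0.087 for SMAD9 and 0.32 for TGIF1 on the rescaled values, to 0.26 for TGFB1, 0.040 for TGFB3, 0.33 for TGFBR1, 0.24 for ENG, 0.21 for BMPR1A, 0.55 for SMAD1, 0.32 for SMAD2, 0.15 for SMAD4, 0.32 for SMAD9 and 0.90 for TGIF1 with the covariate, and to 0.087 for TGFB1, 0.30 for TGFB3, 0.26 for TGFBR1, 0.11 for ENG, 0.42 for ACVR2A, 0.083 for BMPR1A, 0.38 for SMAD1, 0.13 for SMAD2, 0.15 for SMAD4, 0.35 for SMAD9 and 0.69 for TGIF1 in the libraries of higher median. The cause of the differing library medians was not tested.

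For the difference between the lines, 6 genes were higher and 4 lower rescaled, 8 and 3 with the covariate, and 8 and 2 with only the SKNAS libraries of higher median, an alternative chosen after seeing the data, where ACVR2A turned to 0.23. Leaving out 1 SHEP series gave 3 to 5 higher and 5 to 7 lower. Between the lines in MYC-OFF, 12 genes were lower with the covariate and 12 with the libraries of higher median, and leaving out 1 series gave 6 to 7 higher and 18 to 21 lower. For these MYC-OFF fits, and for all fits without 1 series, the shares of all genes are not given here. For the slopes in SHEP the counts without 1 series were 0 to 3 rising and 0 to 6 falling in MYC-OFF, 5 to 7 and 7 to 13 in MYC-ON, and 1 to 6 and 5 to 7 for the difference, with ID1 in MYC-ON at -0.12 without series 1 and 0.59 without series 2. The 24 h rhythm had 0 calls without either series. TPM values carry no read depth, so the precision of low genes could not be given, and with 1 SKNAS series no replicate experiment stood behind its values.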
